A study of Mus musculus with 9 samples.

Results

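The genes that define the plasmacytoid dendritic cell (pDC) were followed in RNA sequencing libraries of sorted mouse pDCs. The set held 31 genes chosen by symbol, and all 31 were found among the 57126 annotated genes of the count table and passed the filter on low counts, which left 17555 genes to test. The libraries came from mouse pDCs purified by fluorescence-activated cell sorting and treated with Ox-mtDNA (oxidized mitochondrial DNA), mtDNA (mitochondrial DNA) or PBS (phosphate-buffered saline, the vehicle), with 3 libraries in each of 3 groups. The labels give no strain, age, tissue of origin, sorting antibodies, dose or time of treatment, and do not say whether libraries of a group came from separate cultures or animals, so the p-values measure the spread between these libraries. Whether a member was among the sorting antigens is therefore not known here.

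pDCs are dendritic cells with the form of a plasma cell that circulate through blood and lymphoid organs and release large amounts of type I interferon when their endosomal receptors meet nucleic acids. Their identity rests on the E protein Tcf4 (also called E2-2), which works with Spib, Runx2, Bcl11a and Zeb2 and is opposed by Id2 and Nfil3, factors of the conventional dendritic cell fate. In the mouse the surface receptors Siglech and Bst2 are the usual antigens for recognising the cell. Transcripts of this program are known to decline when pDCs lose their identity or mature, and some of them, such as Bst2, are also induced by interferon in other cells.

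The label of the cells was checked against the defining markers. Siglech, Bst2, Tcf4, Spib, Ly6d and Klra17 had counts in every library, and in TPM (a level corrected for gene length and library size) Bst2 ranked between 22nd and 106th of the tested genes and Ly6d between 32nd and 185th. Total counts ranged from 16029951 to 25378884 per library, and libraries of a group differed by 15.4 to 347 times the counting variance, so the spread between libraries and not depth set the precision. Replicate 3 of each group was set off from replicates 1 and 2 along a component that held 70.7% of the variance. Its 3 libraries also had 818 to 2087 CPM of Xist (CPM, the count relative to the library total after trimmed mean of M values scaling), where libraries of the other numbers had 0 to 0.846 CPM, and their Y chromosome genes summed to 1.18 to 5.52 CPM, where the others had 259 to 378 CPM. The labels give no sex for any library. The Ox-mtDNA library of replicate 2 was a further exception among the members, with the lowest CPM of all 9 libraries for 18 of the 31 genes, while it held the lowest value for 18.4% of tested genes. The counts and medians of the members below are also given without these libraries.

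Among the 31 genes the level spanned more than 2 orders of magnitude. The highest median TPM over the 9 libraries belonged to Bst2, at 2558 (range 1234 to 3069), and the next to Ly6d, at 1815 (758 to 2558), Plac8, at 1377 (468 to 1832), and Siglech, at 1025 (576 to 1363). The ranges of these neighbours overlapped, so their order is that of the medians and not a difference beyond the spread. Of the transcription factors, Spib had the highest median, 319.8 TPM (206 to 754), followed by Runx2 at 248 (40.7 to 339), Tcf4 at 89.1 (23.3 to 132), Bcl11a at 65.6 (13.1 to 105) and Zeb2 at 36.6 (24.3 to 55.4). The lowest member was Cd209d, a C-type lectin, with a median of 5.12 TPM (0.730 to 17.7). The plot of all members shows that the spread within a gene was widest for Pacsin1, a membrane-bending protein of vesicle traffic (1.93 to 111 TPM), and Lag3, an inhibitory receptor for MHC class II (2.35 to 99.0 TPM), whose low values were those of replicate 3 in every group.

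**Figure D1:**
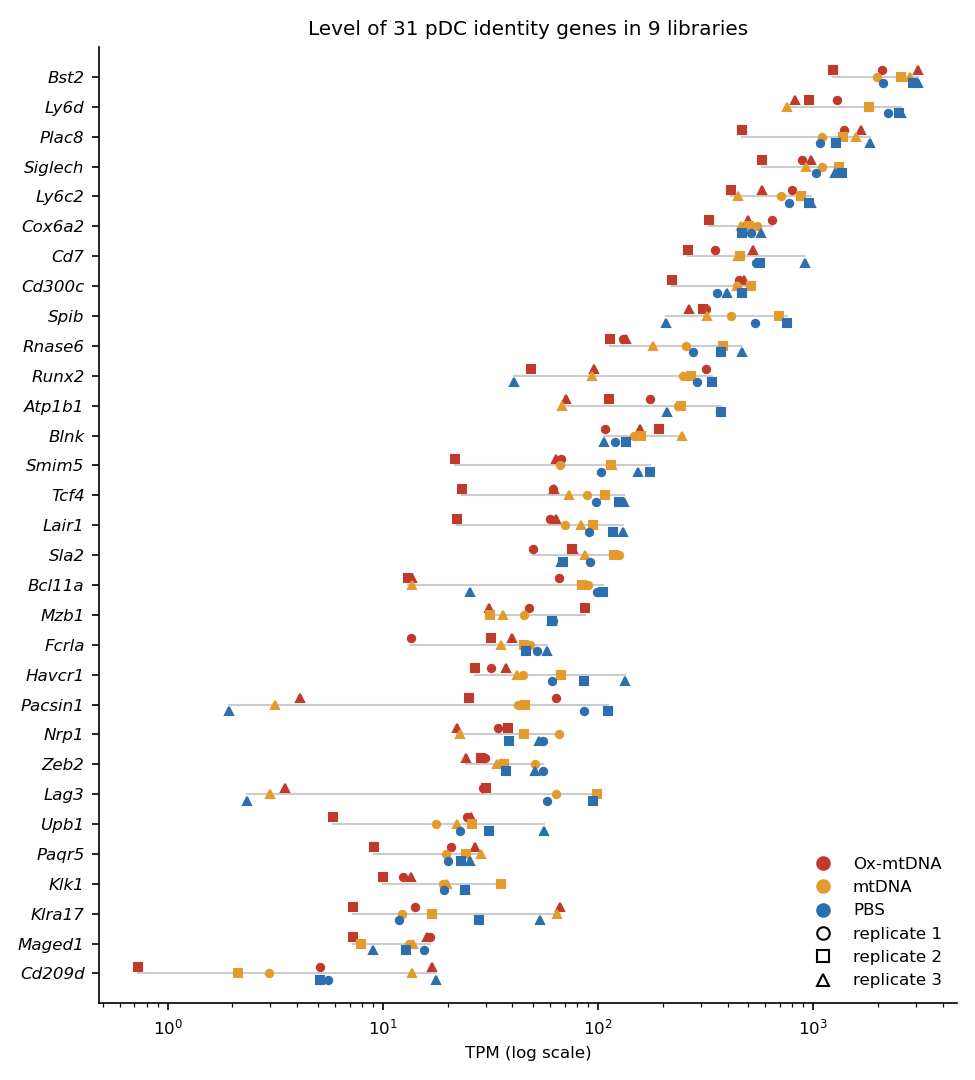
Level of each of the 31 pDC identity genes in 9 libraries, in TPM on a log axis, with genes ordered by their median. Colour gives the treatment and shape the replicate number; Bst2 and Ly6d lead at medians of 2558 and 1815 TPM, and the Ox-mtDNA library of replicate 2 lies at the low end of many rows.

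Promoter windows of 300 bases (250 before to 50 after the start) were present for 24 of the 31 genes in RefSeq tables of build GRCm38.p6. Those of Siglech and Bst2 are shown because these receptors define the cell, those of Rnase6 and Havcr1 because they had the lowest fold changes after Ox-mtDNA. Capitals mark matches, on either strand, to the E-box CAGGTG bound by E proteins such as Tcf4, the E-box CAGCTG, the Spi-type ETS site GAGGAA, the Runx site TGTGGT and the interferon response element, which is GAAA, any 2 bases and GAAA again. Rnase6 and Havcr1 have 3 windows each, of which 1 with matches is printed. The other 2 of Havcr1 and 1 of Rnase6 hold no match, and the remaining window of Rnase6 overlaps the printed one and holds the same number of matches, 3.
Siglech promoter, chr7:55767934-55768233, plus strand: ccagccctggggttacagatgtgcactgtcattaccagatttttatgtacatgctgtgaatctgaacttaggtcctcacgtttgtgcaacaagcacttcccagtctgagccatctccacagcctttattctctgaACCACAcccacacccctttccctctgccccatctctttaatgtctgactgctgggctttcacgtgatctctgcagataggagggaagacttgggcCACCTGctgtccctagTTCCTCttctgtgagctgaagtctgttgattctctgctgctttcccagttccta
Bst2 promoter, chr8:71537423-71537722, minus strand: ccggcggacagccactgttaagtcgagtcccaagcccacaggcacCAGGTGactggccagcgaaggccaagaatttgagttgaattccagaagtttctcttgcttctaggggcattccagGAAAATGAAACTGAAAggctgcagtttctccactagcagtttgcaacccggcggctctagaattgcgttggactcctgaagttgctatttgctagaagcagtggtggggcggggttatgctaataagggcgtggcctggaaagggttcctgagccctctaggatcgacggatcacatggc
Rnase6 promoter, chr14:51128787-51129086, plus strand: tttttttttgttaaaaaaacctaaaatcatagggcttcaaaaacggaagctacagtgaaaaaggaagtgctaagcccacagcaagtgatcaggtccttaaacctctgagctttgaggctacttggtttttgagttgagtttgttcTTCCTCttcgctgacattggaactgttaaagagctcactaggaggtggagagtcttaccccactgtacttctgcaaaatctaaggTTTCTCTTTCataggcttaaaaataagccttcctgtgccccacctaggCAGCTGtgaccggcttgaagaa
Havcr1 promoter, chr11:46739973-46740272, plus strand: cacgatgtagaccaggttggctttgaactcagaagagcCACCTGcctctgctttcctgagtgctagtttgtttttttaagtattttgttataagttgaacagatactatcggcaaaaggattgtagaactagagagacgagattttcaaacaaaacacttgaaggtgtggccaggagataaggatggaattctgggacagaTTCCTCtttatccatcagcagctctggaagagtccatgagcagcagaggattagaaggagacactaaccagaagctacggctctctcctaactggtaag
The Siglech window holds a Runx site (ACCACA), an E-box (CACCTG) and an ETS site (TTCCTC), all read on the opposite strand, while that of Bst2 holds an E-box and 2 interferon elements that overlap by 4 bases. In the Rnase6 window an ETS site, an interferon element and the E-box CAGCTG match, and in the Havcr1 window an E-box and an ETS site.

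Over the 24 members, the ETS site was present in 14, against 31.3% of all 27025 genes with a window. CAGGTG was present in 9 members, against 22.6% of all genes, and the Runx site in 8, against 18.9%. The interferon element was rarer, with 4 members (Bst2, Cd300c, Fcrla and Rnase6) against 3.99% of all genes, and CAGCTG had 4 members against 18.3%. These are counts of letters in a window and show no binding. Atp1b1, Bcl11a, Blnk, Cd209d, Cd300c, Fcrla, Klk1, Klra17, Lair1, Ly6c2, Maged1, Nrp1, Pacsin1, Paqr5, Plac8, Runx2, Sla2, Spib, Upb1 and Zeb2 were searched in the same way and are not printed, and Cox6a2, Ly6d, Tcf4, Lag3, Mzb1, Smim5 and Cd7 are named only.

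The first comparison set Ox-mtDNA against PBS, the effect of the oxidized DNA that the series title names. Most of the program was at lower values: 24 of the 31 log2 fold changes were below 0, with a median of -0.48, and 7 were above 0. Of all tested genes 46.2% were below 0 and 53.8% above, with a median of 0.06. Rnase6, Havcr1, Smim5, Atp1b1, Tcf4, Ly6d and Lair1 were lowest relative to their error, at fold changes between -1.36 and -1.0, and the highest was Blnk at 0.58. No member passed the edgeR quasi-likelihood test with Benjamini-Hochberg adjustment over all tested genes, and 0% of all genes did; the smallest adjusted p of a member was 0.472. By the DESeq2 Wald test 1 member, Rnase6, passed as lower (0.627% of all genes), and 0 passed as higher (1.48% of all genes).

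At an unadjusted edgeR p under 0.05, 7 members were lower, against 3.93% of all tested genes, and 0 were higher, against 5.88%. With the replicate number as a block, 10 were lower at that threshold, against 8.01% of all genes. The 3 Ox-mtDNA libraries lay below all 3 PBS libraries for 9 members (Rnase6, Havcr1, Ly6d, Tcf4, Smim5, Atp1b1, Lair1, Zeb2 and Klk1), against 8.08% of all genes, and above them for 0, against 7.39%. Within a replicate number, the median member difference in log2 CPM came to -0.31, -1.01 and -0.44 for replicates 1, 2 and 3, where all tested genes had medians of 0, 0.00 and 0.08. Members lower than in the PBS library of the same number were 18, 27 and 19 of 31 in replicates 1, 2 and 3, and 12 members were lower in all 3 numbers, against 17.6% of all genes. Blnk was higher in all 3, against 20% of all genes.

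The Ox-mtDNA library of replicate 2 held the largest of these differences. Without it, 21 of 31 fold changes were below 0, against 50.5% of all genes, the median was -0.44, and 4 members were lower at an unadjusted edgeR p under 0.05, against 5.45% of all genes in that fit. The groups then did not overlap for 10 lower members, against 15.4% of all genes, and for 2 higher ones, against 14%. Without the PBS library of replicate 3 the median was -0.28, with 20 below 0 and 5 lower at an unadjusted p under 0.05, against 1.92% of all genes, and 13 members did not overlap as lower, against 15.9%. With replicates 1 and 2 alone, 26 were below 0, the median was -0.56, 6 were lower at that threshold, against 6.57% of all genes, and 15 did not overlap as lower, against 21.5%. Across the fits that each left out a library the median stayed between -0.59 and -0.28.

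Tcf4 (chromosome 18, 69477217 to 69822150, GRCm39), the E protein that specifies the pDC, was at 511, 196 and 524 CPM in the Ox-mtDNA libraries of replicates 1, 2 and 3, against 665, 844 and 1040.1 CPM in the PBS libraries. Every Ox-mtDNA library was below every PBS library, and the lowest of the 9 was Ox-mtDNA replicate 2. The means were 410.2 ± 185 CPM after Ox-mtDNA and 849 ± 188 CPM with PBS (SD, n = 3 each). The fold change was -1.05 (SE 0.39) on the log2 scale with an edgeR quasi-likelihood adjusted p of 0.473, and within the replicate numbers the differences in log2 CPM were -0.38, -2.10 and -0.99.

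Spib (chromosome 7, 44175417 to 44181495), the ETS factor that acts with Tcf4, was at 548, 541 and 463 CPM after Ox-mtDNA, against 761, 1059.7 and 339 CPM with PBS. The groups overlapped, because PBS replicate 3 held the lowest value, and the fold change was -0.48 (SE 0.43). Runx2 (chromosome 17, 44807373 to 45125684), which in mouse pDCs controls their exit from the bone marrow, was at 1541, 242 and 473 CPM after Ox-mtDNA, against 1151, 1342 and 189 CPM with PBS. The highest value and the second lowest were both Ox-mtDNA libraries, and its fold change of -0.25 was smaller than its SE of 0.85.

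Bcl11a (chromosome 11, 24028056 to 24124123), a zinc finger factor required for pDC development, was at 308, 62.9 and 65.5 CPM after Ox-mtDNA, against 384, 403 and 114 CPM with PBS. The groups overlapped at the PBS library of replicate 3, although each Ox-mtDNA library was lower than the PBS library of its number, and the fold change was -1.04 (SE 0.86). Zeb2 (chromosome 2, 44873644 to 45007407), a repressor that works with Tcf4 in pDC identity, was at 210.3, 207 and 175 CPM after Ox-mtDNA, against 323, 216 and 342 CPM with PBS. Those groups did not overlap, but the gap in replicate 2 was narrow, and the fold change was -0.57 (SE 0.26; edgeR adjusted p 0.525). All 5 transcription factors thus had a fold change below 0, with a median of -0.57, and 0 passed the adjusted test.

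Siglech (chromosome 7, 55417932 to 55428581), the sialic acid receptor that marks mouse pDCs, was at 1796, 1194 and 2015 CPM after Ox-mtDNA, against 1717, 2258 and 2439.8 CPM with PBS. Replicate 1 of Ox-mtDNA was above that of PBS, so the groups overlapped, and the fold change was -0.36 (SE 0.28; edgeR adjusted p 0.811). Bst2 (chromosome 8, 71986899 to 71990100), the interferon-induced virus tether also known as tetherin, was at 1019, 617 and 1528 CPM after Ox-mtDNA, against 851, 1159.9 and 1434 CPM with PBS. Ox-mtDNA held both the lowest and the highest value, and the fold change was -0.12 (SE 0.39).

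Havcr1 (chromosome 11, 46630888 to 46670405), a phosphatidylserine receptor, was at 44.4, 38.1 and 52.9 CPM after Ox-mtDNA, against 70.3, 98.1 and 179 CPM with PBS. Each Ox-mtDNA library was below each PBS library, with PBS replicate 3 far above its group. The means were 45.2 ± 7.42 CPM after Ox-mtDNA and 116 ± 56.3 CPM with PBS (SD, n = 3 each), and the fold change was -1.36 (SE 0.38; edgeR adjusted p 0.472, DESeq2 adjusted p 0.0774). Ly6d (chromosome 15, 74633905 to 74635469), a lipid-anchored antigen carried by the lymphoid progenitors of pDCs, was at 593, 448 and 384 CPM after Ox-mtDNA, against 840.3, 940.3 and 1123 CPM with PBS. Here too the groups did not overlap, and the differences within replicate numbers were -0.50, -1.07 and -1.55. Its fold change was -1.03 (SE 0.33; edgeR adjusted p 0.472, DESeq2 adjusted p 0.103).

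Of the other 8 surface members, Lair1, a collagen receptor with inhibitory signalling, also lay below PBS in all libraries, at 264, 100.1 and 288 CPM after Ox-mtDNA against 330.3, 425 and 551 CPM with PBS. Lag3, Cd7, Nrp1, Ly6c2 and Cd209d had fold changes between -1.0 and -0.16 with overlapping groups, while Klra17, an inhibitory receptor for MHC class I, and Cd300c, a receptor of the CD300 family, were at 0.10 and 0.14. In all, 10 of 12 surface members were below 0, with a median of -0.39. Klra17, Ly6c2, Cd209d and Cd300c belong to multigene families, and fragments that aligned to more than 1 place were not counted, so their levels are uncertain.

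Of the 4 adaptor and traffic proteins 2 were below 0 and 2 above, with a median of -0.30. Blnk (chromosome 19, 40917371 to 40982978), the adaptor between the kinase Syk and phospholipase C, was at 140.4, 253 and 206 CPM after Ox-mtDNA, against 129, 142 and 132 CPM with PBS. The Ox-mtDNA libraries of replicates 2 and 3 were above all PBS libraries and that of replicate 1 was just under the highest of them, and the fold change was 0.58 (SE 0.35; edgeR adjusted p 0.676). Sla2 (chromosome 2, 156714377 to 156729112), an adaptor that damps antigen receptor signals, was at 95.9, 147 and 148 CPM after Ox-mtDNA, against 145, 107 and 124 CPM with PBS, with a fold change of 0.06 (SE 0.26). Pacsin1 and Fcrla, an intracellular Fc receptor-like protein, were at -0.80 and -0.65 with overlapping groups.

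Rnase6 (chromosome 14, 51361365 to 51369644), a ribonuclease of the RNase A family, had the smallest p-value of the set for Ox-mtDNA against PBS. It was at 199, 176 and 207 CPM after Ox-mtDNA, against 346, 460.1 and 677 CPM with PBS. The 3 Ox-mtDNA libraries were close to each other and all below the lowest PBS library. The means were 194 ± 16.4 CPM after Ox-mtDNA and 494 ± 168 CPM with PBS (SD, n = 3 each), and the fold change was -1.35 (SE 0.33). The edgeR quasi-likelihood adjusted p was 0.472 and the unadjusted p 0.0033, while DESeq2 gave a fold change of -1.34 with an adjusted p of 0.0273, so the gene fell by the DESeq2 test and by no other test run on all libraries. Its printed promoter is among the 4 with an interferon element.

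Smim5 (chromosome 11, 115790792 to 115797095), a small membrane protein, was at 68.3, 22.5 and 66.4 CPM after Ox-mtDNA, against 86.4, 145 and 148 CPM with PBS. The groups did not overlap, and the fold change was -1.27 (SE 0.49; edgeR adjusted p 0.474), with the largest difference, -2.66, in replicate 2. Klk1 (chromosome 7, 43874784 to 43879042), a tissue kallikrein protease and a member of a multigene family, was at 7.36, 6.03 and 8.10 CPM after Ox-mtDNA, against 9.40, 11.6 and 13.6 CPM with PBS. It too showed no overlap, at a low level, with a fold change of -0.68 (SE 0.35; edgeR adjusted p 0.584). Atp1b1, the beta subunit of the sodium pump, was at 278, 183 and 115 CPM after Ox-mtDNA, against 487, 483 and 318 CPM with PBS, and its fold change was -1.16 (SE 0.48; edgeR adjusted p 0.490).

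Mzb1 (chromosome 18, 35780320 to 35782420), a chaperone partner in antibody secretion, was at 26.6, 49.7 and 17.8 CPM after Ox-mtDNA, against 28.4, 27.9 and 32.6 CPM with PBS. Its fold change was 0.08 (SE 0.39), and 76.9% of its exon bases are shared with a gene on the same strand, so its counts are uncertain. The other 5 members of this group were between -0.79 (Upb1, an enzyme of pyrimidine breakdown) and 0.34 (Maged1), and the groups overlapped in each. Cox6a2, a subunit of cytochrome c oxidase, was at 0.14, Plac8 at -0.05 and Paqr5, a membrane progesterone receptor, at -0.06. Of the 10 secretory, metabolic and other members, 7 were below 0, with a median of -0.37.

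**Figure D2:**
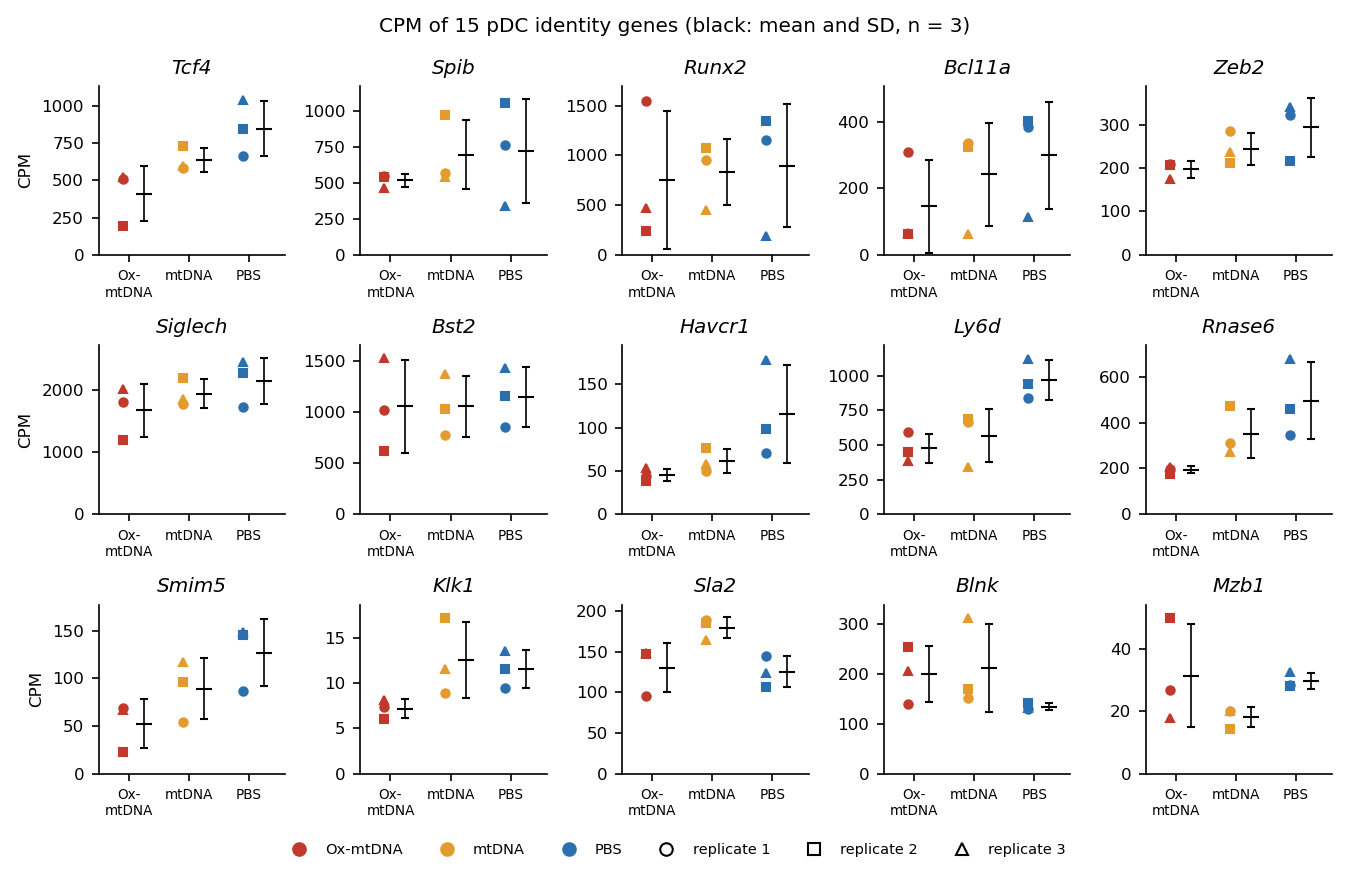
CPM of 15 pDC identity genes in each library, by treatment, with the group mean and SD (n = 3) in black. In Tcf4, Zeb2, Havcr1, Ly6d, Rnase6, Smim5 and Klk1 the 3 Ox-mtDNA libraries lie below the 3 PBS libraries, while those of Siglech and Bst2 overlap.

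The second comparison set mtDNA against PBS. The members were again mostly at lower values, with 24 of 31 fold changes below 0 (48% of all tested genes) and 7 above (52%), but the differences were smaller, with a median of -0.26 against 0.02 over all tested genes. Both treatments were compared with the same PBS libraries, so the 2 counts are not independent. By edgeR 0 members passed (0% of all genes), all with an adjusted p of 1.0, and by DESeq2 0 passed in either direction (0.0741% of all genes higher, 0.0057% lower). At an unadjusted edgeR p under 0.05, 2 members were lower, against 0.598% of all genes, and 0 were higher, against 2.02%. With the replicate number as a block, 4 were lower at that threshold (Atp1b1, Ly6d, Havcr1 and Cd7), against 1.67% of all genes, and 0 passed the adjusted test.

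The groups did not overlap for 4 members that were lower (Ly6d, Mzb1, Atp1b1 and Cd7, a receptor of the immunoglobulin superfamily), against 4.96% of all genes, and for 2 that were higher (Sla2 and Blnk), against 5.58%. Medians within replicates 1, 2 and 3 were -0.18, -0.18 and -0.34, and 15 members were lower in all 3 numbers, against 19.4% of all genes, while 4 were higher, against 20.8%. Without the PBS library of replicate 3, 21 were below 0, the median was -0.21, and 0 members were lower at an unadjusted p under 0.05, against 0.178% of all genes, with 7 that did not overlap as lower, against 13.7%. With replicates 1 and 2 alone, 22 were below 0, the median was -0.20, 2 were lower at an unadjusted p under 0.05, against 0.793% of all genes, and 8 did not overlap as lower, against 22.7%.

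Havcr1 was at 49.7, 76.8 and 58.1 CPM after mtDNA, against 70.3, 98.1 and 179 CPM with PBS. The groups overlapped, each mtDNA library was below the PBS library of its number, and the fold change was -0.91 (SE 0.38; unadjusted p 0.0408, edgeR adjusted p 1.0), or -0.46 without PBS replicate 3. Ly6d was at 668, 685 and 344 CPM after mtDNA, against 840.3, 940.3 and 1123 CPM with PBS. It did not overlap, and its fold change of -0.78 (SE 0.33; unadjusted p 0.0448, edgeR adjusted p 1.0) drew most on replicate 3, where the difference was -1.71 against -0.33 and -0.46 in replicates 1 and 2.

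Sla2 was at 189.6, 186 and 165 CPM after mtDNA, against 145, 107 and 124 CPM with PBS, so all mtDNA libraries were higher. The means were 180.0 ± 13.3 CPM after mtDNA and 125 ± 19.2 CPM with PBS (SD, n = 3 each), and the fold change was 0.52 (SE 0.26; edgeR adjusted p 1.0). Sla2 shares 17.2% of its exon bases with Rab5if on the opposite strand, and the counting did not use strand. Blnk was at 151, 169 and 313 CPM after mtDNA, against 129, 142 and 132 CPM with PBS, without overlap and with the highest value in replicate 3 (fold change 0.65, SE 0.35; edgeR adjusted p 1.0). Without mtDNA replicate 3 the fold change of Blnk was 0.20. Mzb1 was at 20.1, 14.4 and 20.0 CPM after mtDNA, against 28.4, 27.9 and 32.6 CPM with PBS, a fold change of -0.71 (SE 0.39; edgeR adjusted p 1.0), subject to the overlap of exons given above.

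The 5 transcription factors were below 0 in this comparison too, with a median of -0.26. Tcf4 was at 585, 730.4 and 601 CPM after mtDNA, and these values overlapped those of PBS (fold change -0.41, SE 0.39). Spib was at 569.7, 976 and 544 CPM, Runx2 at 956, 1077 and 451 CPM, Bcl11a at 337, 326 and 63.7 CPM and Zeb2 at 285, 212 and 238 CPM after mtDNA, and each of these overlapped its PBS values. Their fold changes were -0.05 (SE 0.42) for Spib, -0.11 (SE 0.85) for Runx2, -0.31 (SE 0.86) for Bcl11a and -0.26 (SE 0.26) for Zeb2. Siglech, at 1766, 2192 and 1851 CPM after mtDNA, and Bst2, at 774, 1027 and 1368 CPM after mtDNA, overlapped PBS as well, with fold changes of -0.14 (SE 0.28) and -0.12 (SE 0.39). The lowest member was Pacsin1 at -1.14, less than its SE of 1.40, and 9 of 12 surface members, 2 of 4 adaptors and 8 of 10 secretory, metabolic and other members were below 0.

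**Figure D3:**
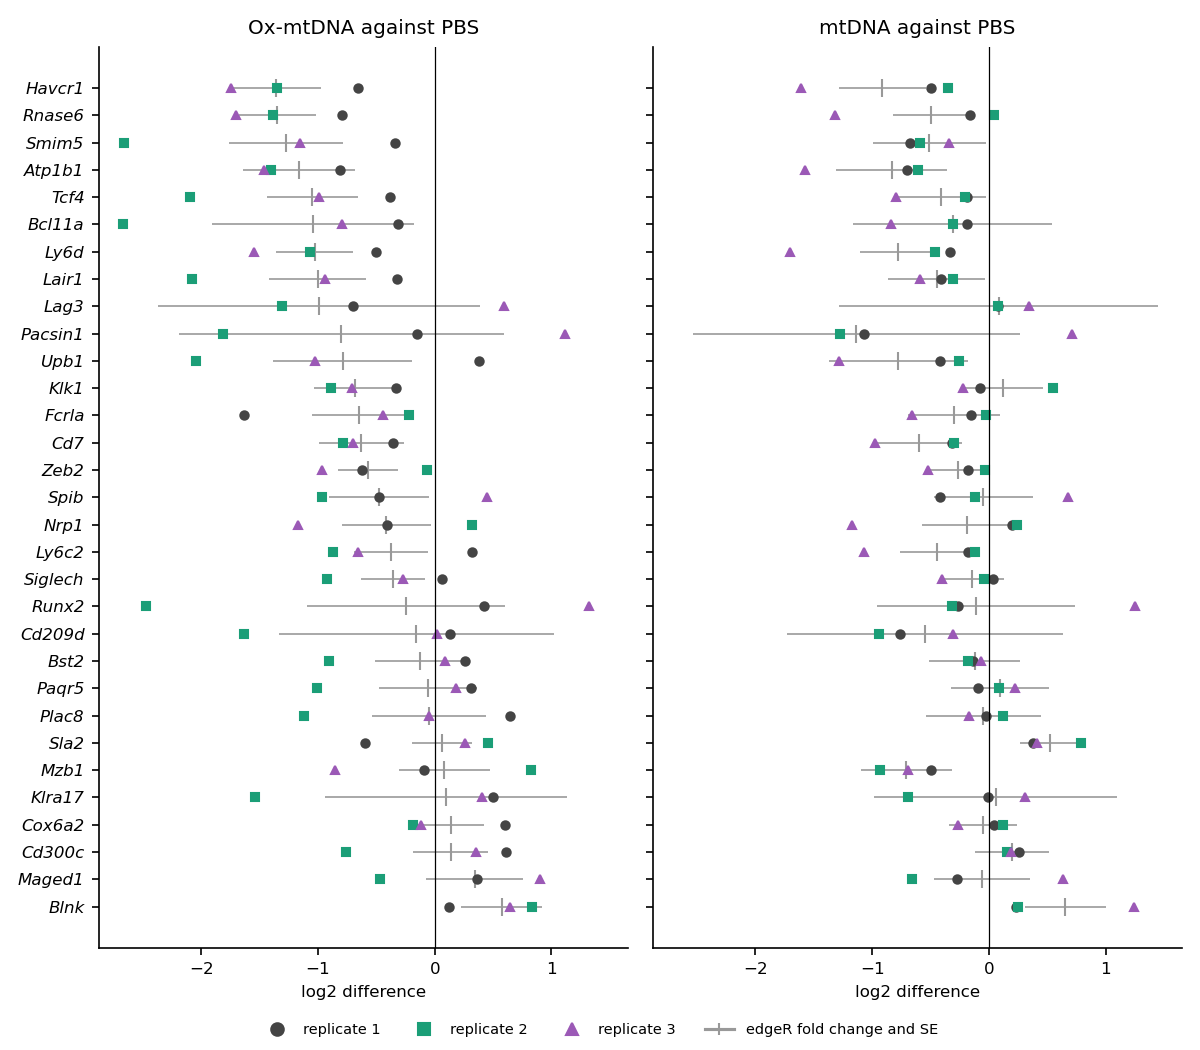
Differences of the 31 genes in log2 CPM between treatment and PBS within replicates 1, 2 and 3 (symbols) and the edgeR log2 fold change with its SE (grey), for Ox-mtDNA on the left and mtDNA on the right. Genes are ordered by their fold change after Ox-mtDNA; replicate 2 reaches -2.67 on the left, and the medians of the fold changes are -0.48 on the left and -0.26 on the right.

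The third comparison set Ox-mtDNA against mtDNA, which tests the difference between the 2 treatments directly. Of the 31 fold changes, 24 were below 0 (45.8% of all tested genes) and 7 above (54.2%), with a median of -0.21 against 0.04 over all tested genes. By edgeR 0 members passed (0% of all genes), all with an adjusted p of 1.0, and by DESeq2 0 passed (0.0057% of all genes lower, 0% higher). Rnase6 and Klk1 were lower at an unadjusted edgeR p under 0.05, which makes 2 members against 1.48% of all genes, and 0 were higher, against 0.923%. With the replicate block these counts were 2 and 0 as well, against 3.37% and 3.43% of all genes. The Ox-mtDNA libraries were below all mtDNA libraries for 5 members (Rnase6, Klk1, Sla2, Tcf4 and Zeb2), against 2.79% of all genes, and above them for 0, against 2.04%.

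The direction was not shared by the replicate numbers. The median member difference came to 0.02, -0.85 and 0.09 for replicates 1, 2 and 3, and 15, 27 and 12 of 31 members were lower in replicates 1, 2 and 3. Without the Ox-mtDNA library of replicate 2, 17 fold changes were below 0, against 49.5% of all genes, and 14 above, 0 members had an unadjusted p under 0.05, against 2.7% of all genes lower and 0.878% higher, and the median was -0.22. The groups did not overlap in that setting for 5 lower members, against 8.09% of all genes, and 4 higher ones, against 7.03%. With replicates 1 and 2 alone, 25 were below 0, the median was -0.25, and 2 were lower and 1 higher at an unadjusted p under 0.05, against 7.18% and 7.84% of all genes. Members lower in all 3 numbers were 7, against 12.7% of all genes, and Maged1 was higher in all 3, against 15.1%.

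Rnase6 was at 199, 176 and 207 CPM after Ox-mtDNA, against 309, 473 and 271 CPM after mtDNA, without overlap and lower in each replicate number (differences of -0.64, -1.43 and -0.38). Its fold change was -0.86 (SE 0.33; unadjusted p 0.0301, edgeR adjusted p 1.0). Klk1 was at 7.36, 6.03 and 8.10 CPM after Ox-mtDNA, against 8.91, 17.2 and 11.5 CPM after mtDNA. Here too the groups did not overlap, and the fold change was -0.81 (SE 0.35; unadjusted p 0.0472, edgeR adjusted p 1.0), or -0.51 without mtDNA replicate 2.

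Tcf4 was at 511, 196 and 524 CPM after Ox-mtDNA, against 585, 730.4 and 601 CPM after mtDNA. The groups did not overlap, but the differences in replicates 1 and 3 were -0.20 each and that in replicate 2 was -1.89 (fold change -0.64, SE 0.39; edgeR adjusted p 1.0). Without Ox-mtDNA replicate 2 it was -0.31. Sla2 was at 95.9, 147 and 148 CPM after Ox-mtDNA, against 189.6, 186 and 165 CPM after mtDNA, a fold change of -0.46 (SE 0.26; edgeR adjusted p 1.0), or -0.28 without Ox-mtDNA replicate 1. Mzb1, at 26.6, 49.7 and 17.8 CPM after Ox-mtDNA against 20.1, 14.4 and 20.0 CPM after mtDNA, had overlapping groups and the highest fold change, 0.79 (SE 0.39; edgeR adjusted p 1.0), or 0.29 without Ox-mtDNA replicate 2. The other transcription factors were at -0.43 (Spib), -0.14 (Runx2), -0.73 (Bcl11a) and -0.31 (Zeb2), and Siglech was at -0.21 (SE 0.28).

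The 3 libraries of replicate 3 differed from the other 6 in some members more than any treatment did. Lag3 was at 4.44, 3.64 and 2.77 CPM in replicate 3 of Ox-mtDNA, mtDNA and PBS, and at 36.2 to 100.5 CPM elsewhere. Pacsin1 was at 12.7, 9.51 and 5.62 CPM in replicate 3 of Ox-mtDNA, mtDNA and PBS, and at 78.2 to 276 CPM elsewhere. These 2 members were below all other libraries, against 24.0% of tested genes, while 5 were above all of them (Bst2, Plac8, Paqr5, Klra17 and Cd209d), against 15.1%. Klra17 stood 2.25 and Cd209d 2.20 higher in mean log2 CPM.

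Over all tested genes these differences ran with the GC content of the longest transcript, which was known for 95.4% of tested genes and all 31 members. Genes of at least 55% GC had a median difference of -1.32 in log2 CPM between replicate 3 and the other libraries, and genes under 45% GC had 0.28. The 4 members of at least 55% GC were split: Lag3 (59.9% GC) and Pacsin1 (57.4%) were at -3.91 and -3.99, while Bst2 (55.3%) and Smim5 (55.5%) were higher in replicate 3. Bcl11a (44.8% GC) and Runx2 (50.3% GC) were at -1.74 and -1.42 despite a lower GC content. The part of GC content in these differences was not tested.

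**Figure D4:**
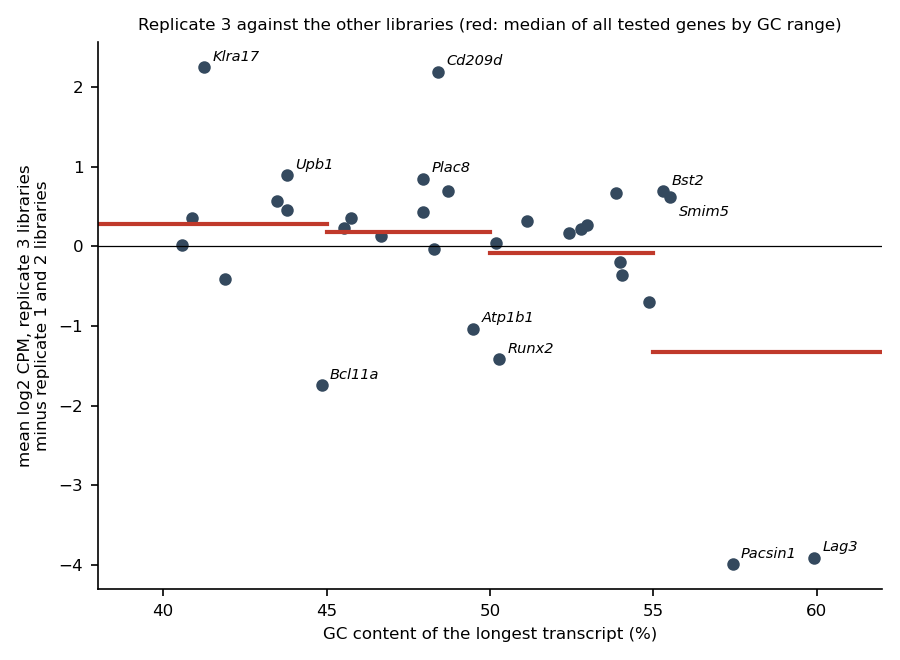
Difference in mean log2 CPM between the 3 libraries of replicate 3 and the other 6, for 31 pDC identity genes, against the GC content of the longest transcript in percent; red lines give the median of all tested genes in 4 ranges of GC content. Lag3 and Pacsin1 lie near -4, where the median of genes of at least 55% GC is -1.32.

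Other genes of pDC development and function, a list of 36 outside the 31, were read beside them. After Ox-mtDNA against PBS 28 of the 36 were below 0, with a median of -0.48, and 6 were lower (3.93% of all tested genes) and 0 higher (5.88%) at an unadjusted edgeR p under 0.05, while 0 passed after adjustment by edgeR. Without Ox-mtDNA replicate 2, 25 were below 0 with a median of -0.37 and 4 were lower at that threshold, against 5.45% of all genes in that fit. With replicates 1 and 2 alone 30 were below 0 with a median of -0.45, and 10 were lower and 1 higher, against 6.57% and 8.82% of all genes. By DESeq2 3 passed as lower (0.627% of all tested genes): Tlr7, which senses single-stranded RNA in endosomes, Cybb, the catalytic subunit of the phagocyte oxidase, and Cd8a, a surface antigen of a subset of mouse pDCs. Tlr7 was at 98.4, 112 and 103 CPM after Ox-mtDNA, against 213, 304 and 319.7 CPM with PBS, without overlap (fold change -1.41, SE 0.27; edgeR adjusted p 0.472, DESeq2 adjusted p 0.000593). Cybb was at 493, 547 and 697 CPM after Ox-mtDNA, against 986, 1185 and 1358 CPM with PBS (fold change -1.02, SE 0.26; edgeR adjusted p 0.472, DESeq2 adjusted p 0.0347), and Cd8a averaged 4.90 ± 1.86 CPM after Ox-mtDNA and 13.8 ± 2.14 CPM with PBS (SD, n = 3 each; DESeq2 adjusted p 0.0296).

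Irf8, a factor of pDC function, was at 4077, 808 and 1327 CPM after Ox-mtDNA, against 2680.4, 2944 and 389 CPM with PBS. Its fold change was 0.05 (SE 0.85), or -0.20 with replicates 1 and 2 alone, between groups that overlapped widely. Irf7, the master factor of interferon induction, was at -1.50 (SE 0.85), Tlr9, the receptor for unmethylated DNA, at -1.04 (SE 1.32) and Ccr9, a gut-homing chemokine receptor, at -1.25 (SE 0.42), with edgeR adjusted p-values of 0.472 or more. A list of 6 factors read as opposing the pDC fate held Id2, Nfil3, Batf3, Zbtb46, Klf4 and Cebpa. Only Id2 and Nfil3 are named above as opposing it, and the role of the others was not tested. Batf3 was at 0.544 to 3.31 CPM over all libraries. Cebpa was at 0.310, 0.109 and 0.0759 CPM in replicate 3 of Ox-mtDNA, mtDNA and PBS. After Ox-mtDNA against PBS 5 of the 6 were above 0 (53.8% of all tested genes), with a median of 0.80. This direction rested on Ox-mtDNA replicate 2: the medians within replicates 1, 2 and 3 were -0.31, 1.18 and 0.40, and without that library 3 of the 6 were above 0, with a median of 0.03. Nfil3, which favours conventional dendritic cells, was at 19.5, 23.9 and 49.6 CPM after Ox-mtDNA, against 5.07, 4.02 and 4.44 CPM with PBS, and rose by the DESeq2 test (adjusted p 0.0276; edgeR fold change 2.78, SE 0.77, adjusted p 0.472). Id2, which binds Tcf4 and blocks it, reached 83.7 CPM in Ox-mtDNA replicate 2, and the remaining 8 libraries had 11.5 to 31.6 CPM.

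After mtDNA against PBS 22 of the 36 genes were below 0, with a median of -0.12, and 0 passed by edgeR or DESeq2, with 1 lower at an unadjusted edgeR p under 0.05 (0.598% of all tested genes). This was Ikzf3, a lymphoid zinc finger factor (fold change -1.32, SE 0.50), and the genes next to it in p were Ccr9 (-0.87, SE 0.41) and Irf4 (1.22, SE 0.66). The value of Irf4 rested on mtDNA replicate 3: it was at 91.4, 77.1 and 405 CPM after mtDNA, against 74.9, 74.8 and 97.3 CPM with PBS, and its fold change was 0.17 with replicates 1 and 2 alone. Among the 6 factors read as opposing the pDC fate Zbtb46, a marker of conventional dendritic cells, was at 1.41 (SE 0.50) and Nfil3 at 2.05 (SE 0.75). Nfil3 too rested on mtDNA replicate 3, with 7.31, 7.11 and 41.6 CPM after mtDNA against 5.07, 4.02 and 4.44 CPM with PBS, and its fold change was 0.66 with replicates 1 and 2 alone. Of the others Batf3 was at 0.59, Id2 at -0.17, Cebpa at -0.19 and Klf4 at -0.55, so 3 were above 0 and 3 below, with a median of 0.21. With replicates 1 and 2 alone Id2 was at 0.22 and Batf3 at 0.93, and 4 of the 6 were above 0, with a median of 0.44. Between Ox-mtDNA and mtDNA 25 of the 36 were below 0, with a median of -0.23, or 23 with a median of -0.14 without Ox-mtDNA replicate 2. Of the 6 factors read as opposing the pDC fate 4 were above 0, with a median of 0.57, but 2 without that library, with a median of -0.48. The smallest p-values there belonged to Cd8a (-1.57, SE 0.39), Tlr7 (-0.97, SE 0.27), Cybb (-0.77, SE 0.26), Irf7 (-2.00, SE 0.87) and Cd4 (-1.10, SE 0.53, or -1.67 with replicates 1 and 2 alone), each with an edgeR adjusted p of 1.0. The groups overlapped for Irf7, whose differences within replicates 1, 2 and 3 were -1.99, -2.56 and 0.44.

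In sorted cells measured in bulk, fewer pDCs among the cells and less of these transcripts per pDC cannot be told apart, so the transcripts of other cell types are given beside the members. The summed CPM of the 31 members was 10419, 5815 and 9575 in the Ox-mtDNA libraries of replicates 1, 2 and 3, 9297, 11312 and 9406 after mtDNA, and 10541, 12655 and 12535 with PBS. The 12 B cell markers summed to 2906 to 3181 CPM after Ox-mtDNA, 1807 to 3092 after mtDNA and 2600 to 3364 with PBS, most of it Ighm, a transcript that pDCs also carry. For mtDNA against PBS all 12 were below 0 (48% of all tested genes), with a median of -0.79. Of these 5 did not overlap as lower, against 4.96% of all genes. For Ox-mtDNA against mtDNA 11 were above 0 (54.2% of all tested genes) and 1 below, with a median of 0.78. The medians of that comparison within replicates 1, 2 and 3 were 0.31, 1.40 and -0.32. For Ox-mtDNA against PBS 8 were above 0 and 4 below, with a median of 0.09. Ox-mtDNA replicate 2 had the highest CPM of all 9 libraries for 7 of the 12 B cell markers, among them Cd79a (182), Ms4a1 (113), Pax5 (106) and Ebf1 (55.5), but not for Ighm (2409), Ighd (94.5) or Cd79b (67.7). It was the lowest for 7 of the 12 markers of type 2 conventional dendritic cells, such as Cst3 (294 CPM), and the highest for 4 of the 12 of monocytes and macrophages and the lowest for 1, Csf1r (104 CPM). The part of these cells in the low member values of that library was not tested.

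The 12 markers of type 1 conventional dendritic cells summed to 402 to 505 CPM after Ox-mtDNA, 373 to 660.4 after mtDNA and 484 to 731 with PBS. Those of type 2 summed to 668 to 1209 CPM after Ox-mtDNA, 911 to 1041 after mtDNA and 984 to 1511 with PBS, and the 12 monocyte and macrophage markers to 241 to 416 CPM after Ox-mtDNA, 258 to 407 after mtDNA and 231 to 345 with PBS. For Ox-mtDNA against PBS 9 of the 12 type 1 markers were below 0 and 3 above, against 46.2% and 53.8% of all tested genes. Their median was -0.92, or -0.63, -0.37 and -0.54 within replicates 1, 2 and 3. The groups did not overlap for 4 of them as lower, against 8.08% of all genes. Of the type 2 markers 8 were below 0 and 4 above, with a median of -0.21. Of the 9 monocyte and macrophage genes tested 5 were above 0 and 4 below, with a median of 0.16. The 6 markers of pre-dendritic and transitional dendritic cells summed to 365 to 410 CPM after Ox-mtDNA, 390 to 412 after mtDNA and 326 to 428 with PBS. For Ox-mtDNA against PBS 3 of these 6 were above 0 and 3 below, with a median of 0.07. Without overlap 1 was higher and 1 lower, against 7.39% and 8.08% of all genes. Neutrophil markers stayed between 4.74 and 25.2 CPM and erythroid markers between 0.326 and 1.22 CPM over all 9 libraries. The T cell list summed to 219 to 289.7 CPM after Ox-mtDNA, 145 to 349 after mtDNA and 215 to 310.2 with PBS, most of it Cd28 (126 to 320.2 CPM), while Cd3e was at 0 to 1.14 CPM and Trac at 0.0675 to 5.22 CPM. Cd3d, also low, was at 0.810, 0.529 and 2.89 CPM after Ox-mtDNA, against 0.186, 0.103 and 0.0380 CPM with PBS, without overlap. Of the 7 T cell genes tested for Ox-mtDNA against PBS, 5 were above 0 and 2 below. By DESeq2 1 passed as higher (1.48% of all tested genes) and 0 as lower (0.627%). The natural killer cell list summed to 36.9 to 125 CPM after Ox-mtDNA, 71.1 to 125 after mtDNA and 56.6 to 74.6 with PBS, of which Klrk1 gave 17.9 to 120.1 CPM, with Ncr1 at 0 to 0.473 CPM. No gene of the marker lists was at 0 in every library. The part of these cells in the differences between treatments was not tested.

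**Figure D5:**
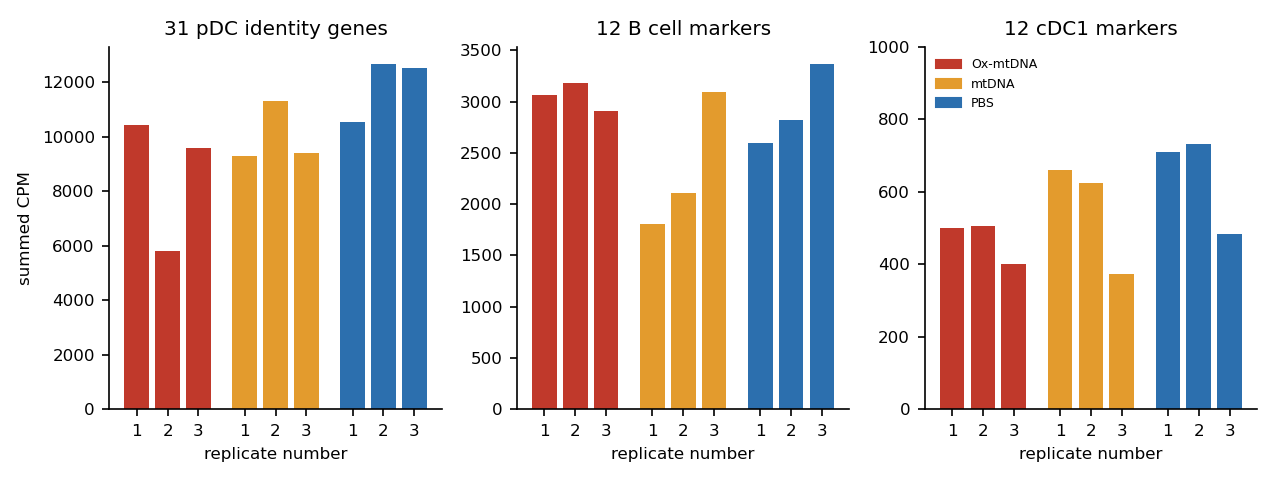
Summed CPM of 31 pDC identity genes, 12 B cell markers and 12 markers of type 1 conventional dendritic cells in each library; bars start at 0 and are coloured by treatment. The Ox-mtDNA library of replicate 2 has the lowest member sum, 5815 CPM, while its B cell sum of 3181 CPM lies within the range of the other libraries. That sum is mostly Ighm (2409 CPM), and 7 of the 12 B cell markers are highest in this library.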

How the data were processed

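The table deposited by the authors holds raw counts of fragments over the exons of GENCODE M34 genes, per the file headers. It was made without strand, gave a fragment over several genes to each of them and left out fragments with more than 1 alignment. The submitters' processing notes name fastp 0.23.4, STAR 2.7.11b, featureCounts 2.0.1 and build GRCm39. Polyadenylated RNA was selected on poly-T beads after TRIzol and RNeasy extraction, per the labels.

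All 9 columns were assigned to groups from the sample titles, and 0 columns were left unused. In R 4.3.3, genes passing filterByExpr of edgeR 4.0.16 (minimum count 10; 17555 genes, of 51884 with a symbol) were fitted over all 9 libraries with TMM factors, a coefficient per group (6 residual degrees of freedom) and robust quasi-likelihood. The F-test was two-sided, with Benjamini-Hochberg adjustment over all tested genes and a threshold of 0.05. The steps were tested on simulated counts. CPM values use the TMM factors, TPM values the gene lengths of the count table, and log2 CPM differences a pseudocount of 0.5. Fold changes are log2 and treatment over vehicle, or Ox-mtDNA over mtDNA. Lists were described by counts and medians beside those of all tested genes, with no test of their own. GC content was taken from the longest transcript of an earlier GENCODE release.

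Replicate numbers come from the titles. Deviations from the group means of libraries with the same number correlated at 0.487 to 0.897 over genes in every pair of groups (prior count of 2). Libraries of different numbers were not compared, and the split of replicate 3 in every group can by itself give such correlations. They therefore do not show whether replicates 1 and 2 are paired by number. Alternatives were DESeq2 1.42.0, limma-voom (limma 3.58.1), other size factors and filters, the replicate block and leaving out libraries. Values in every library were printed for the 5 transcription factors, Siglech, Bst2, any member past the threshold by edgeR or DESeq2, and the 5 members with the smallest unadjusted p in each comparison. Atp1b1, Lair1, Lag3 and Pacsin1 were printed in addition, after their values were seen. Members and lists were chosen with earlier results of these data known.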

Additional observations from a re-analysis of the deposited data

How the results depend on the processing

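With 3 libraries a group and replicate 3 apart from the rest, the spread between libraries limits what can be called. The count of members past the adjusted threshold was 0 in all 3 comparisons under edgeR with relative log expression or upper quartile factors, no filter, limma-voom, a minimum of 1 CPM in 3 libraries, a fit to the 6 libraries compared, replicates 1 and 2 only, and each fit without a library (0 to 0). The exception was the DESeq2 Wald test for Ox-mtDNA against PBS, with 1 member, Rnase6; the cause was not tested. With the replicate block it was 0 in all 3 comparisons, and the median member fold change was -0.45 for Ox-mtDNA against PBS, -0.27 for mtDNA against PBS and -0.20 for Ox-mtDNA against mtDNA; the block changed no call of a member.

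Medians kept their sign under every alternative. Leaving out a library gave medians of -0.59 to -0.28 for Ox-mtDNA against PBS, -0.38 to -0.21 for mtDNA against PBS (-0.37 without mtDNA replicate 3 and -0.38 without PBS replicate 2, the cause not tested) and -0.40 to -0.12 for Ox-mtDNA against mtDNA. No member named by its p-value changed sign in any of these fits; over them Rnase6 was between -1.56 and -1.07, Havcr1 between -1.63 and -0.91, and Tcf4 between -1.32 and -0.73 for Ox-mtDNA against PBS. Replicates 1 and 2 with the block, a setting chosen after seeing the data, gave medians of -0.61 for Ox-mtDNA against PBS and -0.32 for Ox-mtDNA against mtDNA. Counts at an unadjusted p or without overlap, and those of the related lists, without replicate 3, Ox-mtDNA replicate 2 or PBS replicate 3 were likewise added after seeing the data.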

Other observations

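Plasma cell transcripts were present in all libraries although the cells were sorted as pDCs. The 7 genes of that list summed to 1167 to 1788 CPM after Ox-mtDNA, 1009 to 1894 CPM after mtDNA and 1162 to 1288 CPM with PBS. Most of the sum came from Xbp1, a factor of the unfolded protein response that pDCs also carry, and Jchain, the joining chain of secreted antibodies, which is known in pDCs too. Prdm1 was at 18.2, 48.6 and 44.0 CPM after Ox-mtDNA, against 10.6, 5.57 and 6.38 CPM with PBS. Irf4 was at 102, 248 and 243 CPM, against 74.9, 74.8 and 97.3 CPM. These 2 did not overlap (7.39% of all tested genes higher), and 6 of the 7 genes were above 0 and 1 below. By DESeq2 1 passed as higher (1.48% of all genes) and 0 as lower (0.627%). Within a replicate number, the PBS library had the highest of the 3 values for 15, 20 and 19 of the 31 pDC identity genes in replicates 1, 2 and 3, against 27.1%, 31% and 38.7% of all tested genes. The Ox-mtDNA library had the lowest value for 14, 26 and 8 of the 31, against 42.3%, 43.2% and 26.8%.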
